A study of Mus musculus with 4 samples.

Results

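CD8 and CD4 T cells were compared between doxorubicin-treated (KO-DOX) and control-treated (KO-CTRL) mice whose dendritic cells lack Cd274, the gene of PD-L1. The members were the cells of these 2 libraries that carried CD8 or CD4 transcripts without the other: CD8 cells held at least 2 UMIs of Cd8a and Cd8b1 together and 0 of Cd4, CD4 cells held at least 1 UMI of Cd4 and 0 of Cd8a and Cd8b1, and both held 0 of Cd79a. They numbered 13092 of the 48578 barcodes kept in the series, 4101 CD8 and 1789 CD4 cells in KO-DOX and 4753 CD8 and 2449 CD4 cells in KO-CTRL. A UMI is a tag that marks 1 captured RNA molecule, and barcodes with fewer than 300 genes or over 10% UMIs from mitochondrial genes were dropped.

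All mice bore tumours of MC38-OVA cells (MC38 is a mouse colon carcinoma line, OVA is ovalbumin), and live T cells were sorted from the draining lymph nodes and made into 5′ single-cell libraries. Both libraries shared the knockout, labelled PD-L1 knockout and described as conditional to dendritic cells, so T cells and tumour cells are not its stated target. The driver of the deletion, the doxorubicin dose, the timing, the age of the mice and how many mice each library holds are not stated in the labels. A second pair, WT-DOX and WT-CTRL, had the genotype label Control with the same tumour and treatments, and its values are set beside those of the knockout pair.

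PD-L1 on dendritic cells binds PD-1 on T cells in the draining node and restrains their priming. Doxorubicin is an anthracycline that poisons topoisomerase II, breaks DNA in dividing cells and activates p53, and dying tumour cells can release signals that reach T cells in the node through dendritic cells and type I interferon. CD8 cells mature into cytotoxic cells, while CD4 cells become helper, follicular helper or regulatory cells.

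There was 1 library per group, so no test between the treatments was possible and no p-value is given. Levels are UMI counts scaled to the lineage's UMIs in a library (CPM, per 1000000 UMIs) with exact Poisson 95% intervals, and folds are log2 of CPM + 1, KO-DOX over KO-CTRL. A gene was measured if it reached 20 CPM in either library, and it was called if its absolute log2 fold was at least 0.32 and the intervals lay apart. All intervals cover counting error only and say nothing about the spread between mice. The CD8 sums held 17832134 UMIs in KO-DOX and 20185360 in KO-CTRL, and the CD4 sums held 6981610 in KO-DOX and 10313064 in KO-CTRL, so CD8 levels were the more precise ones.

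The gated cells carried T cell transcripts. All 10 T cell markers (such as Cd3e, Trac and Lck) were measured in both lineages and 0 of them were called. Markers of other cells differed in level. Macrophage, monocyte or neutrophil markers summed to 5.94 CPM in KO-DOX and 6.59 CPM in KO-CTRL CD8 cells, and to 15.5 and 5.82 CPM in KO-DOX and KO-CTRL CD4 cells, and erythroid markers were at or near 0. Natural killer or innate lymphoid markers, which include genes that CD8 cells express, such as Nkg7 and Eomes, summed to 702 CPM in KO-DOX and 692 CPM in KO-CTRL CD8 cells, where 2 of 10 were measured and 1 (Eomes) was called lower. They summed to 95.3 CPM in KO-DOX and 66.0 CPM in KO-CTRL CD4 cells, and gamma delta T cell markers to 6.16 and 3.69 CPM in KO-DOX and KO-CTRL CD4 cells. Tumour or stromal markers summed to 74.6 CPM in KO-DOX and 81.5 CPM in KO-CTRL CD8 cells. B or plasma cell markers, which include MHC class II genes, summed to 335 CPM in KO-DOX and 255 CPM in KO-CTRL CD8 cells and to 505 and 314 CPM in KO-DOX and KO-CTRL CD4 cells. Dendritic markers summed to 95.9 CPM in KO-DOX and 97.0 CPM in KO-CTRL CD8 cells, and to 118 and 76.8 CPM in KO-DOX and KO-CTRL CD4 cells. Neither gate took 43.2% of the KO-DOX and 44.4% of the KO-CTRL barcodes, and 33.0% of the KO-DOX and 34.2% of the KO-CTRL barcodes had no CD4 or CD8 UMI. The 2 libraries shared 199 barcode sequences, within the 175 to 271 of the 6 library pairs.

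CD8 cells made up 39.5% of KO-DOX barcodes (exact binomial interval 38.6% to 40.5%) and 36.7% of KO-CTRL barcodes (35.9% to 37.5%). CD4 cells made up 17.2% of KO-DOX barcodes (16.5% to 18.0%) and 18.9% of KO-CTRL barcodes (18.2% to 19.6%). The sort and the gates bear on these shares, and with gates raised to 3 UMIs of CD8 genes and 2 of Cd4 the CD4 ratio of KO-DOX to KO-CTRL was 0.984 in place of 0.912. Cd274 itself, which T cells also express, was not called: it stood at 73.5 CPM in KO-DOX and 75.6 CPM in KO-CTRL CD8 cells, and at 107 and 93.2 CPM in KO-DOX and KO-CTRL CD4 cells. A deletion in dendritic cells is not read by the T cells' Cd274, so these values do not check the genotype label.

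In CD8 cells more genes were lower than higher in KO-DOX, and in CD4 cells the reverse held. Of 5800 genes measured in CD8 cells, 24 were called higher (0.414%) and 57 lower (0.983%). Of 6268 measured in CD4 cells, 122 were called higher (1.95%) and 48 lower (0.766%). Among the 5673 genes measured in both lineages, 11 were higher in both (0.194%) and 18 lower in both (0.317%). A difference in 1 lineage only required a call there, no call in the other, and log2 folds apart by at least 0.32 with an interval that left out 0. By that rule 5 genes were higher (0.0881%) and 13 lower (0.229%) in CD8 cells only, 44 were higher (0.776%) and 11 lower (0.194%) in CD4 cells only, and 2 went in opposite directions (0.0353%). The 18 shared decreases included 9 mitochondrially encoded and 5 interferon-list genes, and the CD4-only increases included memory, effector and mitotic genes. With cells thinned to 1500 UMIs and gated again, 2 of the 11 shared increases and 7 of the 18 shared decreases kept their class. So did 0 of the 5 increases and 4 of the 13 decreases in CD8 cells only. In CD4 cells only, 3 of the 44 increases and 2 of the 11 decreases did.

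**Figure D1:**
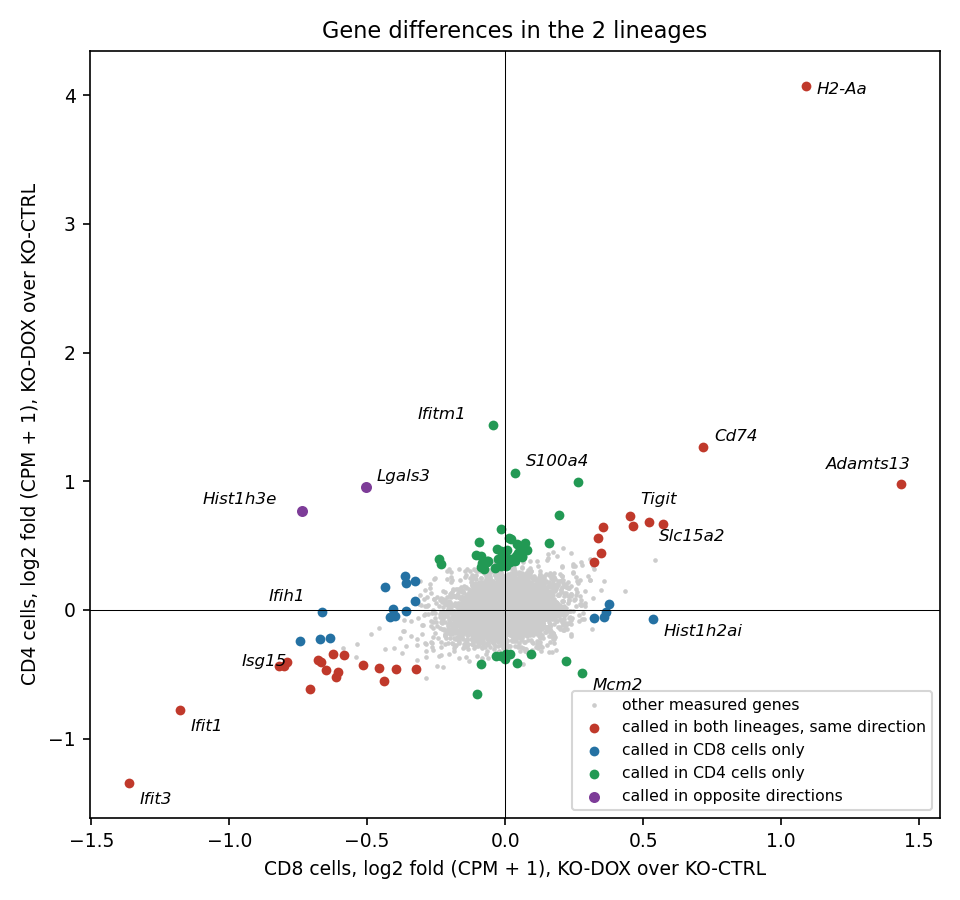
Log2 fold of CPM + 1, KO-DOX over KO-CTRL, in CD8 cells (horizontal axis) and CD4 cells (vertical axis), each point 1 gene measured in both lineages. Red points are the 29 genes called in both in the same direction, blue the 18 called in CD8 cells only, green the 55 called in CD4 cells only and purple the 2 called in opposite directions; Ifit3 and Ifit1 lie lowest along the shared diagonal, and most green points lie above 0 near the vertical line.

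Ifit3 and Ifit1, both induced by interferon, had the largest of the shared decreases. Ifit3 (GRCm38 chr19:34583531-34588731, plus strand), whose protein works in complexes with its IFIT relatives, stood at 18.2 CPM (16.3 to 20.3) in KO-DOX and 48.5 CPM (45.5 to 51.6) in KO-CTRL CD8 cells, a log2 fold of -1.36. In CD4 cells it stood at 12.0 CPM (9.60 to 14.9) in KO-DOX and 32.1 CPM (28.7 to 35.7) in KO-CTRL, a log2 fold of -1.34. The 2 lineages thus differed by -0.02 in log2 fold, with an interval of -0.38 to 0.35. Ifit1, which blocks translation of RNA lacking a host cap, stood at 18.7 CPM in KO-DOX and 43.6 CPM in KO-CTRL CD8 cells, and at 18.6 CPM in KO-DOX and 32.6 CPM in KO-CTRL CD4 cells. Its log2 folds were -1.18 in CD8 and -0.78 in CD4 cells, so the CD8 difference was the larger by 0.40 (interval of CD8 minus CD4 -0.73 to -0.07). Usp18, which removes ISG15 from proteins and dampens the interferon receptor, stood at 23.4 CPM in KO-DOX and 38.8 CPM in KO-CTRL CD8 cells, and at 17.3 and 27.1 CPM in KO-DOX and KO-CTRL CD4 cells. Ifit2 and Rtp4 were the other shared members of the interferon list, and Daxx, a histone chaperone, was lower at log2 folds of -0.46 in CD8 and -0.45 in CD4 cells.

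The promoters of Ifit3 and Ifit1, which had the largest shared decreases, and of Isg15, lower in CD8 cells only, are shown. They were picked as examples that hold the letters that interferon-stimulated response elements share. Capitals mark every match to GAAANNGAAA on either strand (on the opposite strand it reads TTTCNNTTTC), and overlapping matches are merged. The windows run from 250 bases before to 50 after the RefSeq start (GRCm38.p6), written 5′ to 3′ on the gene's strand. Ifit3 is at chr19:34583279-34583578 on the plus strand, Ifit1 at chr19:34640639-34640938 on the plus strand and Isg15 at chr4:156200769-156201068 on the minus strand.
Ifit3: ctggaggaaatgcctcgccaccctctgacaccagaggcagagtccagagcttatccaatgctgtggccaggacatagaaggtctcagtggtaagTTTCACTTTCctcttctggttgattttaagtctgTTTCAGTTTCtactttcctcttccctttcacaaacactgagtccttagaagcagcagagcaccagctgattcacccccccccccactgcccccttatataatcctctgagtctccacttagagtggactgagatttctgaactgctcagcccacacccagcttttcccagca
Ifit1: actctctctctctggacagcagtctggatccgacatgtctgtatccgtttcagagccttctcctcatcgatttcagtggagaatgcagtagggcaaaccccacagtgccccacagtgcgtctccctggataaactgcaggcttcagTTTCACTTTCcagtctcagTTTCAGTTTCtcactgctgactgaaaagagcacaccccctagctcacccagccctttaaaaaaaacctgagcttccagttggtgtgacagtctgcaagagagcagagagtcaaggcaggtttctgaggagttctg
Isg15: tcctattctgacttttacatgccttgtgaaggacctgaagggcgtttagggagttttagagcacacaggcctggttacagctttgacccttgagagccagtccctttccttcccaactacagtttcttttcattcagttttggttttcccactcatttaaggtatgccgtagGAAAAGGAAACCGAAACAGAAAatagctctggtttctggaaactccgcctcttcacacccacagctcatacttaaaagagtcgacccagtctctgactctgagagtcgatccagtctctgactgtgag

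Ifit3 and Ifit1 each held 2 matches, at -156 and -122 and at -104 and -85 from the start, and Isg15 held 3 overlapping matches at -78, -72 and -66. The motif stood in 1131 of 32851 promoter windows (3.44%) in the table, and in 1079 of the 27025 genes with a window there (3.99%). Of the 46 genes in the interferon list, 37 had a promoter there and 21 of these held it (56.8%), including 8 of the 14 called lower in either lineage that had an entry. A match to these letters is a description of the window and does not show binding.

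Over the whole type I interferon list, 35 of 46 genes were measured in CD8 cells, where 15 were called lower and 0 higher with a median log2 fold of -0.26, against a median of 0.01 over all measured genes. In CD4 cells 34 were measured, 6 were called lower and 0 higher, and the median was -0.15 against 0.01 over all measured genes. Of all measured genes 0.983% were called lower in CD8 and 0.766% in CD4 cells. In the WT pair the medians over the list were negative too, at -0.18 in CD8 and -0.09 in CD4 cells. Negative folds in the knockout pair were found for 34 of the 35 in CD8 and 31 of the 34 in CD4 cells. By contrast the list of interferon gamma targets and GTPases had 0 calls among 17 measured genes in CD8 cells, and in CD4 cells 1 higher call (Socs1) and 1 lower (Gbp6, an interferon-inducible GTPase, at 71.2 CPM in KO-DOX and 96.8 CPM in KO-CTRL). The CD4 sums hold fewer UMIs than the CD8 sums, so the 15 and 6 calls on the type I list are not set against each other.

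Several interferon-induced genes met the rule for CD8 cells only. Ifih1, which encodes the RNA sensor MDA5, stood at 18.0 CPM (16.1 to 20.1) in KO-DOX and 29.1 CPM (26.8 to 31.5) in KO-CTRL CD8 cells. In CD4 cells it was level, at 43.8 CPM in KO-DOX and 44.2 CPM in KO-CTRL, and the log2 folds differed by -0.65 (interval -0.93 to -0.37). Rnf213, an interferon-induced ubiquitin ligase, stood at 68.0 CPM in KO-DOX and 92.3 CPM in KO-CTRL CD8 cells, against 62.6 and 55.3 CPM in KO-DOX and KO-CTRL CD4 cells. Isg15, the ubiquitin-like modifier whose promoter is shown above, stood at 69.0 CPM in KO-DOX and 116 CPM in KO-CTRL CD8 cells (log2 fold -0.74), against 97.7 and 116 CPM in KO-DOX and KO-CTRL CD4 cells (log2 fold -0.24). Slfn5, Isg20 and Herc6 from the list were also lower in CD8 cells only. Cmpk2, a mitochondrial nucleotide kinase induced by interferon, was called lower in CD8 cells (10.7 CPM in KO-DOX, 21.4 CPM in KO-CTRL) and lay under the floor in CD4 cells, where it stood at 8.59 and 14.3 CPM in KO-DOX and KO-CTRL.

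The interferon UMIs were also counted cell by cell, over a core that held genes already called lower above. Ifit1, Ifit2, Ifit3, Usp18 and Rtp4 were called lower in both lineages, and Isg15 and Cmpk2 in CD8 cells. The shares of cells are therefore not a separate measurement of that difference. The core of 8 genes (Ifit1, Ifit2, Ifit3, Usp18, Isg15, Rsad2, Rtp4 and Cmpk2) gave 3 or more UMIs in 8.63% of KO-DOX CD8 cells (7.79% to 9.53%) and 12.8% of KO-CTRL CD8 cells (11.8% to 13.8%). In CD4 cells the shares were 8.44% in KO-DOX (7.19% to 9.83%) and 12.3% in KO-CTRL (10.98% to 13.6%). With every cell thinned to 1500 UMIs, which left out 67 KO-DOX and 141 KO-CTRL CD8 cells and 123 KO-DOX and 108 KO-CTRL CD4 cells, the CD8 shares were 2.11% in KO-DOX and 5.66% in KO-CTRL and the CD4 shares 2.16% in KO-DOX and 4.02% in KO-CTRL. Cells with 3 or more held 27.5% of the core's UMIs in KO-DOX and 54.6% in KO-CTRL CD8 cells after thinning, and 31.1% in KO-DOX and 47.7% in KO-CTRL CD4 cells. Before thinning they held 52.0% in KO-DOX and 72.2% in KO-CTRL CD8 cells, and 58.1% in KO-DOX and 69.3% in KO-CTRL CD4 cells. Before thinning, 37 KO-DOX and 157 KO-CTRL CD8 cells and 16 KO-DOX and 56 KO-CTRL CD4 cells had 10 or more. Outside the cells with 3 or more the libraries were closer, a split that is itself made on these UMIs: cells with fewer than 3 UMIs had 113 CPM of the core in KO-DOX and 124 CPM in KO-CTRL (CD8), and 107 CPM in KO-DOX and 120 CPM in KO-CTRL (CD4). Among thinned CD8 cells of the WT pair the shares were 1.64% in WT-DOX and 1.77% in WT-CTRL, and before thinning those of WT CD4 cells were 5.81% in WT-DOX and 7.90% in WT-CTRL. On the core shares KO-CTRL was thus the library that stood apart, above KO-DOX and both WT libraries. Over the whole type I list the WT medians were negative too, as given above. KO-CTRL was also the highest for Ifit3, with 18.2 CPM in KO-DOX and 48.5 CPM in KO-CTRL CD8 cells beside 12.2 CPM in WT-DOX and 18.7 CPM in WT-CTRL CD8 cells.

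**Figure D2:**
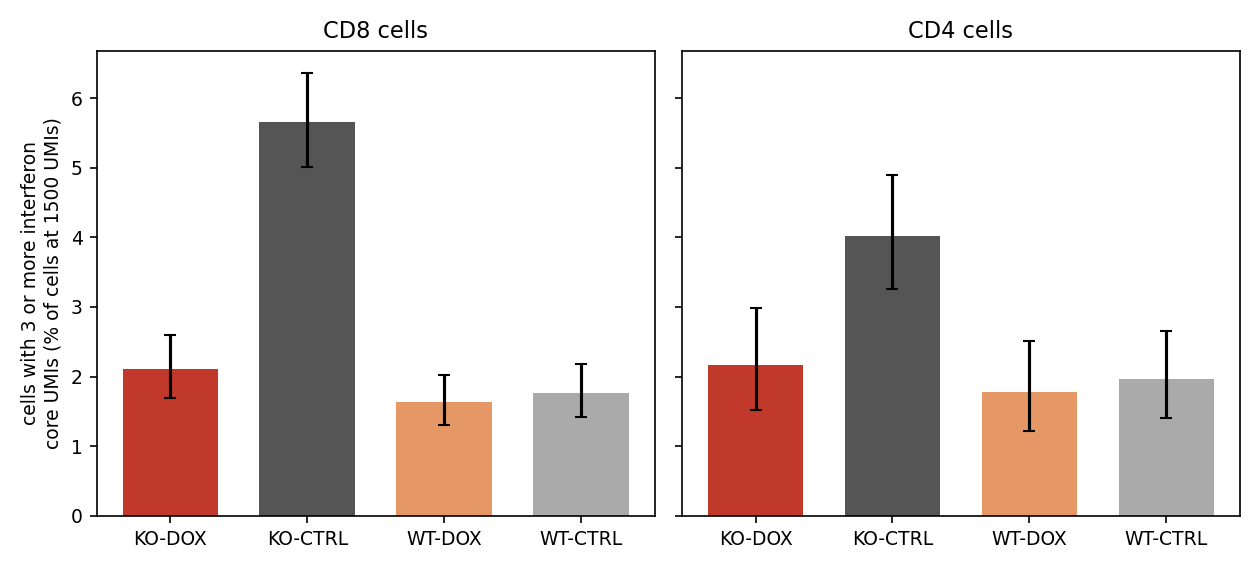
Share of CD8 cells (left) and CD4 cells (right) with 3 or more UMIs of the 8 core interferon genes after thinning each cell to 1500 UMIs, in percent. Bars are libraries and lines exact binomial 95% intervals; KO-CTRL reaches 5.66% in CD8 and 4.02% in CD4 cells, and the other 3 libraries lie between 1.64% and 2.16%.

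The cells were also split by marker UMIs into dividing, Foxp3-positive or Ccl5-positive, follicular-marker, memory or activated, and remaining subsets. Dividing cells held 3 or more UMIs of Mki67, Top2a, Cdk1, Birc5, Cenpf, Nusap1 and Stmn1, memory or activated cells 3 or more of S100a4, S100a6, Crip1, Lgals1, Ahnak and Itgb1, and Foxp3-positive and Ccl5-positive cells at least 1 UMI of Foxp3 and 2 of Ccl5. In all 4 CD8 subsets the interferon list had a negative median, between -0.50 in dividing and -0.21 in Ccl5-positive cells. In CD4 cells the median was -0.58 in the 61 KO-DOX and 85 KO-CTRL Foxp3-positive cells, -0.21 in memory or activated and -0.12 in remaining cells, but 0.01 in dividing and 0.04 in follicular-marker cells. By itself Ifit3 was lower in KO-DOX with intervals apart in 4 of the 5 CD4 subsets, with 5.19 CPM in KO-DOX and 20.9 CPM in KO-CTRL follicular-marker cells (6 and 25 UMIs).

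Mitochondrially encoded transcripts were the other shared decrease. Of 13 such genes, 11 were measured in CD8 cells and all 11 were called lower, with a median log2 fold of -0.67, and 9 of 10 measured were called lower in CD4 cells, with a median of -0.42. Over all measured genes the lower calls were 0.983% in CD8 and 0.766% in CD4 cells. Cytochrome b of complex III (mt-Cytb) stood at 125 CPM (120 to 131) in KO-DOX and 197 CPM (191 to 204) in KO-CTRL CD8 cells, and at 122 CPM (114 to 130) in KO-DOX and 169 CPM (161 to 177) in KO-CTRL CD4 cells. For mt-Nd4, a complex I subunit, the levels were 26.8 CPM in KO-DOX and 47.4 CPM in KO-CTRL CD8 cells, and 25.5 CPM in KO-DOX and 34.9 CPM in KO-CTRL CD4 cells. Here KO-DOX was the library that stood apart: mt-Cytb was 204 CPM in WT-DOX and 189 CPM in WT-CTRL CD8 cells, and the WT median log2 fold over the list was -0.04 in CD8 cells and 0.00 in CD4 cells. Of the nuclear genes of oxidative phosphorylation 0 of 41 were called in either lineage, with medians of 0.08 in CD8 and 0.02 in CD4 cells.

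These transcripts were scarce in every library, since the median CD8 cell had 0.0322% mitochondrial UMIs in KO-DOX and 0.0604% in KO-CTRL, and the median CD4 cell 0.0264% in KO-DOX and 0.0470% in KO-CTRL. A CD8 cell had no mitochondrial UMI at all in 35.0% of cases in KO-DOX and 22.1% in KO-CTRL. The share of the nuclear RNA Malat1 moved the same way, with a median of 0.878% in KO-DOX and 1.04% in KO-CTRL CD8 cells and 1.16% in KO-DOX and 1.32% in KO-CTRL CD4 cells. Malat1 also differed in WT CD8 cells, with 0.842% in WT-DOX and 1.13% in WT-CTRL. Without the tenth of cells with the highest Malat1 share, 17 of the 18 shared decreases were still called in both lineages. The part that RNA quality or cell handling has in the mitochondrial difference was not tested. Leaving out cells by their Malat1 share does not test it, since handling would act on a whole library.

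**Figure D3:**
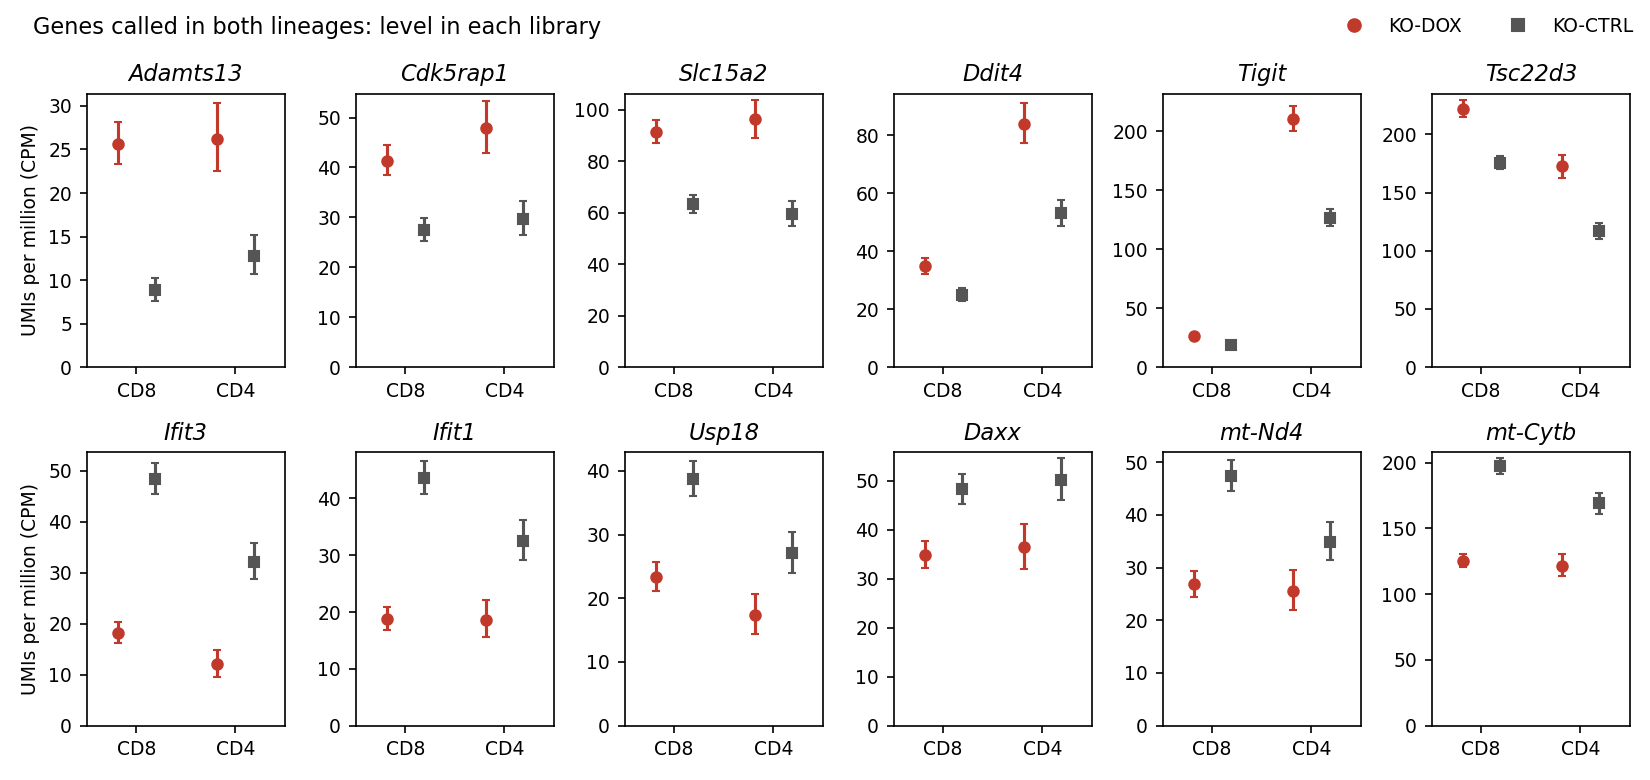
Level in CPM of 12 genes called in the same direction in both lineages, KO-DOX (red circles) left of KO-CTRL (grey squares), with exact Poisson 95% intervals. The upper row holds genes higher in KO-DOX, the lower row genes lower in KO-DOX; Tigit, for example, stands at 211 CPM in KO-DOX and 127 CPM in KO-CTRL CD4 cells.

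Among the shared increases, Adamts13 was one of the genes that were also higher in the WT pair. Its protein cleaves von Willebrand factor, a role known from blood rather than T cells, and the gene lies at chr2:26973416-27009628 on the plus strand (GRCm38). It stood at 25.7 CPM (23.4 to 28.1) in KO-DOX and 8.87 CPM (7.62 to 10.3) in KO-CTRL CD8 cells, and at 26.2 CPM (22.6 to 30.3) in KO-DOX and 12.8 CPM (10.7 to 15.2) in KO-CTRL CD4 cells. The UMIs were spread over cells, 366 KO-DOX and 162 KO-CTRL CD8 cells, and the gene was higher in KO-DOX in all 4 CD8 subsets. In the WT pair its log2 folds were 1.29 in CD8 and 1.55 in CD4 cells.

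Cdk5rap1, an enzyme that modifies mitochondrial tRNA, stood at 41.3 CPM in KO-DOX and 27.4 CPM in KO-CTRL CD8 cells, and at 48.0 CPM in KO-DOX and 29.8 CPM in KO-CTRL CD4 cells. Slc15a2, a proton-coupled peptide transporter, stood at 91.4 CPM in KO-DOX and 63.4 CPM in KO-CTRL CD8 cells, and at 96.3 CPM in KO-DOX and 59.5 CPM in KO-CTRL CD4 cells. Both genes were higher in WT-DOX too, with WT log2 folds of 1.42 and 0.52 in CD8 cells and 1.86 and 0.47 in CD4 cells for Cdk5rap1 and Slc15a2 in that order. Ddit4, an mTORC1 inhibitor induced by stress and glucocorticoids, stood at 34.8 CPM in KO-DOX and 24.9 CPM in KO-CTRL CD8 cells, and at 83.9 CPM in KO-DOX and 53.1 CPM in KO-CTRL CD4 cells. Tsc22d3, which encodes the glucocorticoid-induced leucine zipper, had log2 folds of 0.34 in CD8 and 0.56 in CD4 cells, against 0.62 and 0.76 in the CD8 and CD4 cells of the WT pair. These were the 2 called members of the integrated stress and growth restraint list, of 15 measured in each lineage. Over all measured genes the higher calls were 0.414% in CD8 and 1.95% in CD4 cells. Over all 24 genes called higher in CD8 cells, 8 were called higher and 4 lower in WT CD8 cells, and over the 57 called lower, 6 were called lower and 2 higher there. Of all genes measured in WT CD8 cells, 0.708% were called higher and 3.5% lower. Of the 122 genes called higher in CD4 cells, 16 were called higher and 10 lower in WT CD4 cells, where 1.38% of all measured genes were called higher and 2.27% lower. Of the 48 called lower in CD4 cells, 2 were called lower and 1 higher in WT CD4 cells.

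Tigit, an inhibitory receptor for CD155, was higher in both lineages of the knockout pair and level in the WT pair. It stood at 26.5 CPM (24.1 to 29.0) in KO-DOX and 19.1 CPM (17.2 to 21.1) in KO-CTRL CD8 cells, and at 211 CPM (200 to 222) in KO-DOX and 127 CPM (120 to 134) in KO-CTRL CD4 cells. The WT log2 folds were 0.04 in CD8 and -0.09 in CD4 cells. Within CD4 cells the intervals lay apart in all 5 subsets, including 552 CPM in KO-DOX and 409 CPM in KO-CTRL follicular-marker cells and 482 CPM in KO-DOX and 339 CPM in KO-CTRL Foxp3-positive cells. Batf, an AP-1 factor of activated T cells, had log2 folds of 0.32 in CD8 and 0.37 in CD4 cells, Gm15218 had 0.35 and 0.64, and Ehbp1, named beyond the rule because it completes the 11, had 0.35 and 0.44. With the marker-defined subsets weighted to the same proportions, Batf had 0.316 in CD8 and 0.278 in CD4 cells, both under the fold a call needs.

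The remaining shared increases were MHC class II genes, for which single cells held much of the UMIs. H2-Aa stood at 22.2 CPM in KO-DOX and 9.91 CPM in KO-CTRL CD8 cells, and at 28.9 CPM in KO-DOX and 0.776 CPM in KO-CTRL CD4 cells. A single cell held 64.4% of its KO-DOX CD8 UMIs, another 58.4% of its KO-DOX CD4 UMIs and another 47.0% of its KO-CTRL CD8 UMIs. Cd74, the class II chaperone, stood at 141 CPM in KO-DOX and 85.2 CPM in KO-CTRL CD8 cells, and at 222 CPM in KO-DOX and 91.8 CPM in KO-CTRL CD4 cells. Of its UMIs, 1 cell held 24.7% in KO-DOX CD8, another 23.3% in KO-DOX CD4 and another 21.3% in KO-CTRL CD8 cells. Without cells with 2 or more UMIs of H2-Aa, H2-Ab1 and H2-Eb1, a limit chosen after these values were seen, H2-Aa was not called in either lineage, and Cd74 was called at log2 folds of 0.34 in CD8 and 0.44 in CD4 cells. H2-Eb1 likewise had 54.7% of its KO-DOX CD4 UMIs in 1 cell.

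The gene lists overlap, so that a gene can count on several of them. In CD4 cells the genes of follicular helper T cells, which help B cells in germinal centres, were higher as a group. Of the 22 genes on that list, 19 were measured in CD4 cells, 10 were called higher and 0 lower, and the median log2 fold was 0.34, against 1.95% of all measured genes called higher and a median of 0.01. Tox2, a factor that drives follicular fate, stood at 105 CPM (97.9 to 113) in KO-DOX and 60.7 CPM (56.0 to 65.6) in KO-CTRL. Sostdc1, a BMP and Wnt antagonist made by follicular cells, stood at 149 CPM in KO-DOX and 86.7 CPM in KO-CTRL. Cxcr5, the receptor that leads cells into follicles, stood at 30.8 CPM (26.8 to 35.2) in KO-DOX and 18.6 CPM (16.1 to 21.4) in KO-CTRL. Pdcd1, the gene of PD-1, stood at 59.4 CPM (53.9 to 65.4) in KO-DOX and 44.2 CPM (40.2 to 48.5) in KO-CTRL CD4 cells, and at 8.02 and 7.63 CPM in KO-DOX and KO-CTRL CD8 cells, under the floor. Il4, Il21, Bcl6, Tnfsf8, Sh2d1a and Batf were the other called members. In the WT pair the CD4 median over the list was -0.02. The list ran the same way in CD8 cells of the knockout pair, where 7 genes were measured and 6 had positive folds. There 1 was called higher and 0 lower, and the median was 0.20, against 0.414% of all measured genes called higher and a median of 0.01.

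Cells with follicular markers were also a larger share of CD4 cells, 15.0% in KO-DOX (13.4% to 16.8%) and 10.2% in KO-CTRL (9.08% to 11.5%), against 8.93% in WT-DOX and 9.58% in WT-CTRL. These cells were chosen by 2 or more UMIs of Cxcr5, Pdcd1, Bcl6, Tox2, Sostdc1 and Il21, so the share and the levels of those genes are not separate measurements. With the subsets weighted to the same proportions in both libraries, the list median was 0.11 and the log2 fold of Pdcd1 was 0.15 in place of 0.42, which was not called. Tox2 had 0.44 in place of 0.79, Sostdc1 0.37 in place of 0.77 and Cxcr5 0.39 in place of 0.70, and these 3 stayed called. Inside the follicular-marker cells Pdcd1 stood at 193 CPM in KO-DOX and 204 CPM in KO-CTRL, with overlapping intervals, while Tox2 stood at 458 CPM (420 to 499) in KO-DOX and 352 CPM (319 to 387) in KO-CTRL.

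**Figure D4:**
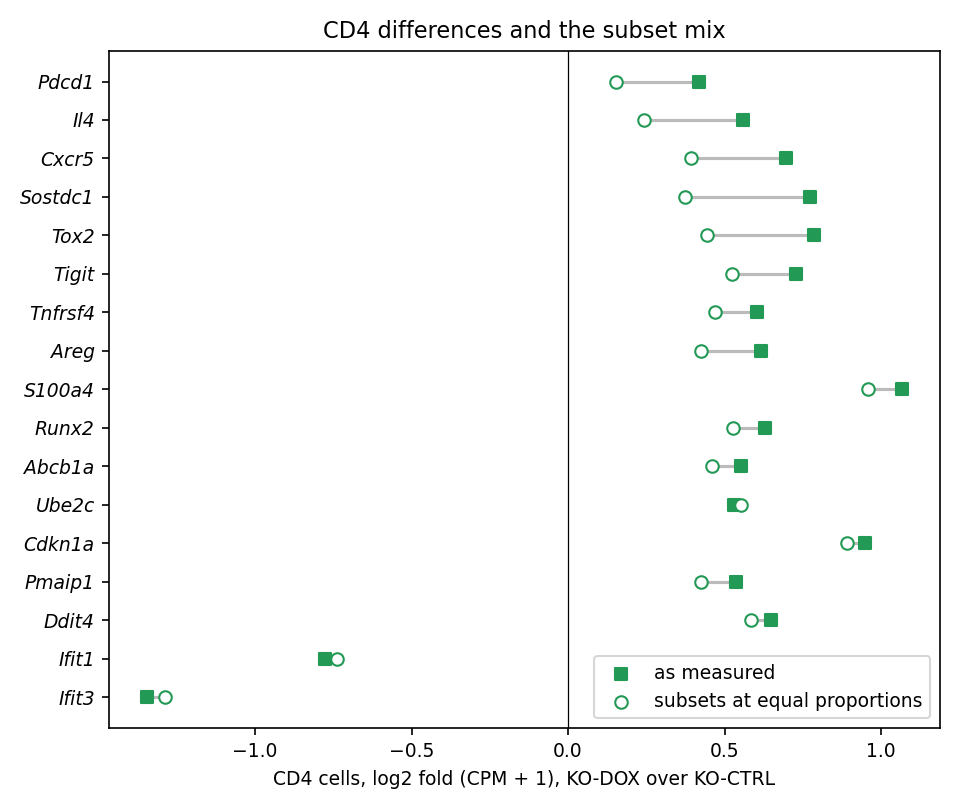
Log2 fold of CPM + 1 in CD4 cells, KO-DOX over KO-CTRL, for 17 named genes as measured (filled squares) and with the marker-defined subsets weighted to equal proportions (open circles). Follicular genes at the top move towards 0 (Pdcd1 0.42 as measured and 0.15 weighted), while S100a4, Cdkn1a, Ifit1 and Ifit3 move little. S100a4 and several follicular genes are among the markers that define the subsets.

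Regulatory T cell genes gave 7 higher calls and 0 lower among 18 measured in CD4 cells, with a median of 0.18, against 1.95% of all measured genes called higher and a median of 0.01. In CD8 cells 7 were measured and 1 was called, Rgs1, which was lower, against 0.983% of all measured genes called lower there. The Foxp3-positive share was 3.41% of KO-DOX and 3.47% of KO-CTRL CD4 cells, and Foxp3 itself stood at 22.3 CPM in KO-DOX and 20.4 CPM in KO-CTRL, not called. Il10, an anti-inflammatory cytokine, stood at 21.3 CPM (18.1 to 25.1) in KO-DOX and 6.21 CPM (4.78 to 7.92) in KO-CTRL CD4 cells, from 49 and 39 cells. Here 1 cell held 11.4% of the KO-DOX UMIs, and WT CD4 cells had 19.5 CPM in WT-DOX and 18.0 CPM in WT-CTRL, so KO-CTRL was the low library. Areg, a repair factor of regulatory cells, stood at 116 CPM in KO-DOX and 75.2 CPM in KO-CTRL CD4 cells, and within Foxp3-positive cells at 518 CPM (441 to 606) in KO-DOX and 140 CPM (105 to 183) in KO-CTRL. Its difference was not confined to these cells. Memory or activated cells had 97.8 CPM in KO-DOX and 35.3 CPM in KO-CTRL, with intervals apart. Follicular-marker cells went the other way, at 222.5 CPM in KO-DOX and 277.7 CPM in KO-CTRL, with overlapping intervals. Tnfrsf4, the co-stimulatory receptor OX40, stood at 309 CPM (296 to 322) in KO-DOX and 203 CPM (195 to 212) in KO-CTRL CD4 cells, with intervals apart in 4 of 5 subsets. In CD8 cells, where it lay under the floor, it stood at 14.0 CPM in KO-DOX and 8.42 CPM in KO-CTRL. Ctla4, Il1r2, Itgae and Ebi3 were the other called members. Ccr8, a chemokine receptor of activated regulatory cells, had a log2 fold of 0.65.

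Memory and activation genes were called higher in CD4 cells, and none was in CD8 cells. Of 22 genes measured on the memory and activated list 7 were called higher in CD4 cells (median 0.17), against 1.95% of all measured genes. In CD8 cells 0 of 21 were called higher and 2 lower (median -0.03), against 0.414% higher and 0.983% lower of all measured genes. Cells with memory or activation markers made up 34.3% of KO-DOX and 34.7% of KO-CTRL CD4 cells, and 51.4% of KO-DOX and 48.0% of KO-CTRL CD8 cells. S100a4 (chr3:90603771-90606045, plus strand), a calcium-binding protein of memory cells, stood at 113 CPM (106 to 122) in KO-DOX and 53.6 CPM (49.2 to 58.3) in KO-CTRL CD4 cells, a log2 fold of 1.07. In CD8 cells it was level, at 34.2 CPM in KO-DOX and 33.3 CPM in KO-CTRL, and the folds differed by -1.03 (interval of CD8 minus CD4 -1.25 to -0.81). The CD4 difference was present in dividing, follicular-marker and memory or activated cells, each with intervals apart, and 165 CPM in KO-DOX and 89.3 CPM in KO-CTRL follicular-marker cells is an example. S100a4 is itself one of the genes that define memory or activated cells. Its levels in that subset and in the remaining cells are therefore not separate from the split. Lgals1, S100a6, S100a11, Id2, Prdm1 and Lgals3 were also called higher, and Itgb1, an integrin chain of memory cells, ran apart in the lineages, with log2 folds of -0.36 in CD8 and 0.21 (not called) in CD4 cells. Runx2, a transcription factor, stood at 42.7 CPM in KO-DOX and 27.2 CPM in KO-CTRL CD4 cells, and at 21.1 and 21.4 CPM in KO-DOX and KO-CTRL CD8 cells.

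Some CD4-only increases in cytotoxic genes rested on few cells. On the cytotoxic list 3 of 9 measured genes were called higher in CD4 cells (Nkg7, Ifng and Ccl5), against 1.95% of all measured genes. Ifng stood at 36.7 CPM in KO-DOX and 26.1 CPM in KO-CTRL CD4 cells, with 21.5% of the KO-DOX UMIs in 1 cell, and it was not called without the dividing cells. Ccl5, a chemokine, had 40.6% of its KO-DOX and 22.1% of its KO-CTRL CD4 UMIs in 1 cell each, and under the stricter gates its log2 fold was -1.69, the opposite direction. Nkg7, a granule protein of CD8 and natural killer cells, stood at 71.0 CPM in KO-DOX and 54.4 CPM in KO-CTRL CD4 cells beside 668 and 652 CPM in KO-DOX and KO-CTRL CD8 cells, and 1 cell held 11.1% of its KO-DOX and another 10.2% of its KO-CTRL CD4 UMIs. Ifitm1 and Ifitm2, on neither the cytotoxic nor the type I interferon list, were also higher in KO-DOX CD4 cells, with log2 folds of 1.435 and 0.993. Ifitm1 was held by 8 KO-DOX and 7 KO-CTRL CD4 cells, 1 of which gave 52.3% of the KO-DOX and another 90.2% of the KO-CTRL UMIs. In CD8 cells 3 of 17 measured cytotoxic genes were called lower, against 0.983% of all measured genes. They were Eomes, a memory factor, at 27.4 CPM in KO-DOX and 36.6 CPM in KO-CTRL, and the chemokines Ccl4 and Xcl1. Gzmb was not called in either lineage.

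Genes of the p53 response were called in CD4 cells. Of 22 measured p53 targets 3 were called higher in CD4 cells and 0 lower (median 0.17), against 1.95% of all measured genes called higher, and 0 of 19 were called in CD8 cells (median 0.03). Cdkn1a (chr17:29090976-29100727, plus strand), the cell cycle inhibitor p21, stood at 25.1 CPM (21.5 to 29.1) in KO-DOX and 12.5 CPM (10.4 to 14.9) in KO-CTRL CD4 cells, and at 7.01 and 8.08 CPM in KO-DOX and KO-CTRL CD8 cells, under the floor. Intervals lay apart in 1 of the 5 CD4 subsets, dividing cells, with 49.6 CPM (39.2 to 61.9) in KO-DOX and 12.3 CPM (8.22 to 17.6) in KO-CTRL, and without them the log2 fold was 0.48 and not called. Without cells over 3 times the median UMIs of their library it was 0.71, also not called. The WT pair had a Cdkn1a log2 fold of 0.98 in CD4 cells. Pmaip1, the BH3-only protein NOXA, had a CD4 log2 fold of 0.54, and Ccng1 one of 0.39. Bbc3, which encodes the BH3-only protein PUMA, was not called in the knockout pair, at 35.8 CPM in KO-DOX and 31.2 CPM in KO-CTRL CD8 cells and at 31.7 and 29.1 CPM in KO-DOX and KO-CTRL CD4 cells. Its WT values were 43.6 CPM in WT-DOX and 23.8 CPM in WT-CTRL CD8 cells, and 44.8 CPM in WT-DOX and 17.9 CPM in WT-CTRL CD4 cells.

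Dividing cells were 6.32% of KO-DOX and 5.92% of KO-CTRL CD4 cells and 3.49% of KO-DOX and 2.82% of KO-CTRL CD8 cells. In CD4 cells 4 of 29 measured G2 and M phase genes were called higher, among them Ube2c, an ubiquitin-conjugating enzyme of mitosis, at 124 CPM in KO-DOX and 85.4 CPM in KO-CTRL, while in CD8 cells 0 of 23 were called. Of all genes measured in CD4 cells, 1.95% were called higher and 0.766% lower. Within dividing CD4 cells 28 of the 29 had positive folds, with a median of 0.19, and within dividing CD8 cells 22 of the 23 had negative folds, with a median of -0.13. S phase genes ran the other way in CD4 cells, with a median of -0.12 and 1 call, Mcm2, a helicase subunit, at 21.8 CPM in KO-DOX and 31.0 CPM in KO-CTRL. With cells thinned to 1500 UMIs and gated again, both CD4 medians changed sign, to -0.02 for G2 and M phase and 0.03 for S phase. With equal weight per cell the S phase median was 0.04 and the G2 and M phase median 0.28, and without cells over 3 times the median depth they were 0.15 and 0.49. Without the dividing cells, 20 of the 44 genes higher in CD4 cells only still met that rule. Hist1h3e, a replication-dependent histone gene, went in opposite directions, at 18.2 CPM in KO-DOX and 31.0 CPM in KO-CTRL CD8 cells and at 49.7 CPM in KO-DOX and 28.7 CPM in KO-CTRL CD4 cells, and without dividing cells it was called in neither lineage. A single cell held 18.2% of its KO-CTRL CD8 UMIs and another 14.4% of its KO-DOX CD4 UMIs. Lgals3, the galectin of activated cells, was the other gene with opposite calls, at 30.4 CPM in KO-DOX and 43.5 CPM in KO-CTRL CD8 cells and at 26.1 CPM in KO-DOX and 13.0 CPM in KO-CTRL CD4 cells, where 1 cell held 16.5% of the KO-DOX and another 12.7% of the KO-CTRL UMIs. Its CD8 log2 fold turned positive and was not called without cells over 3 times the median depth (0.23), with UMIs capped at 5 per cell (0.017) and without dividing cells (0.19), and its CD4 difference was not called under these settings either.

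**Figure D5:**
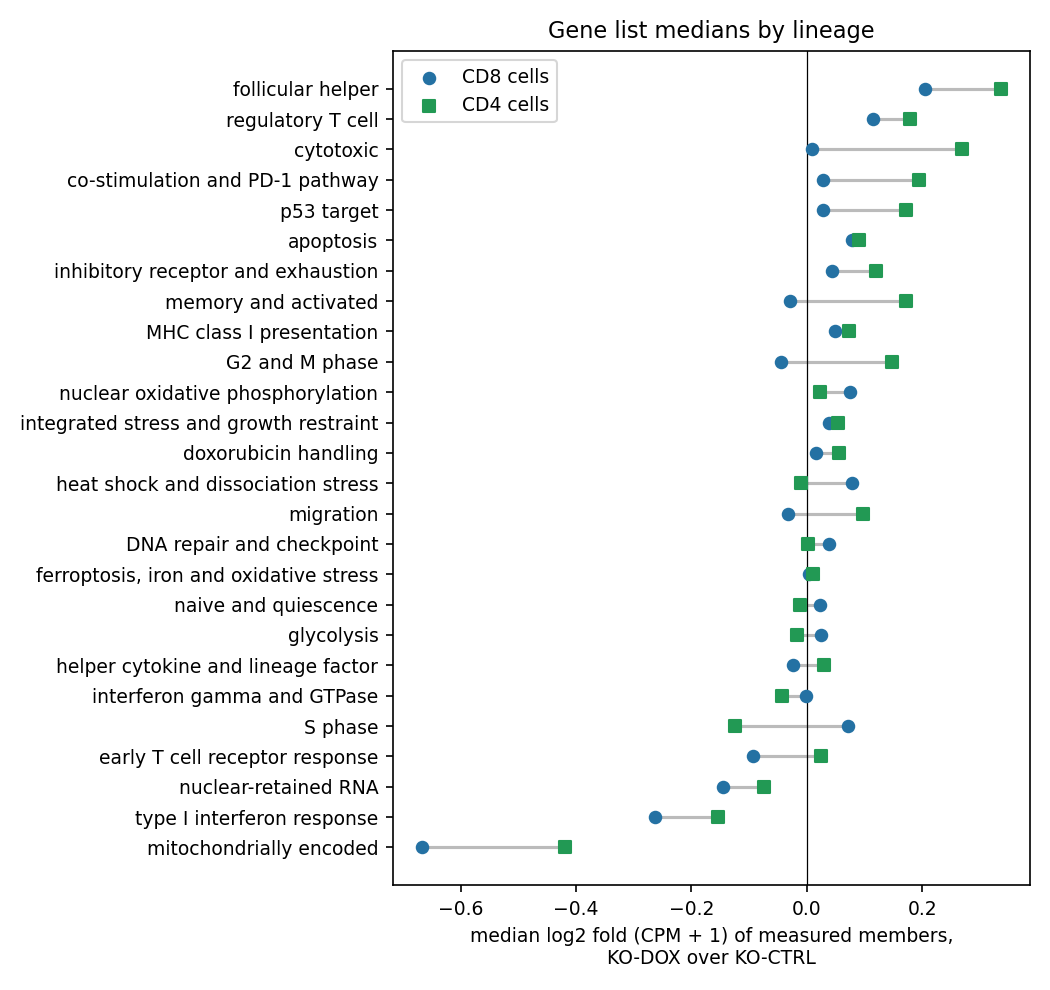
Median log2 fold of CPM + 1, KO-DOX over KO-CTRL, of the measured members of 26 gene lists in CD8 cells (circles) and CD4 cells (squares). Mitochondrially encoded and type I interferon genes lie furthest below 0 in both lineages, and follicular helper genes furthest above 0, at 0.20 in CD8 and 0.34 in CD4 cells.

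Genes linked to doxorubicin handling and to ferroptosis were mostly uncalled. Over all genes measured in CD4 cells, the calls were 1.95% higher and 0.766% lower. On the doxorubicin handling list 0 of 10 measured genes were called in CD8 cells and 1 of 10 in CD4 cells, Abcb1a, which encodes the P-glycoprotein pump that exports doxorubicin, at 46.1 CPM (41.2 to 51.4) in KO-DOX and 31.1 CPM (27.8 to 34.7) in KO-CTRL. In CD8 cells it was level, at 49.9 CPM in KO-DOX and 49.2 CPM in KO-CTRL, and the folds differed by -0.53 (interval of CD8 minus CD4 -0.78 to -0.28). The WT pair ran the other way in CD4 cells, at 24.0 CPM in WT-DOX and 34.7 CPM in WT-CTRL. Of the ferroptosis, iron and oxidative stress list 0 of 24 measured genes were called in CD8 cells and 1 of 23 in CD4 cells, Tfrc, the transferrin receptor, which was lower at -0.34. Gpx4, the enzyme that detoxifies lipid peroxides, stood at 202 CPM in KO-DOX and 199 CPM in KO-CTRL CD8 cells and at 242 and 224 CPM in KO-DOX and KO-CTRL CD4 cells, not called. No gene was called on the apoptosis, heat shock, glycolysis or MHC class I presentation lists in either lineage, with 16, 17, 13 and 21 genes measured in CD8 cells.

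On the early T cell receptor response list 3 of 30 measured genes were called higher in CD4 cells (Tnfrsf4, Cd83 and Batf) and 0 lower, against 1.95% of all measured genes called higher. In CD8 cells 21 of 26 measured genes had negative folds with a median of -0.09, and in CD4 cells 13 of 30 did with a median of 0.02. Zfp36, an RNA-binding protein that curbs cytokine mRNA, was the 1 lower call in CD8 cells beside 1 higher call (Batf), at 333 CPM in KO-DOX and 429 CPM in KO-CTRL CD8 cells. In the WT pair the CD8 median over this list was 0.16. Rgs1, a regulator of chemokine receptor signalling, was lower in CD8 cells only, at 38.7 CPM in KO-DOX and 50.04 CPM in KO-CTRL, against 105 and 87.1 CPM in KO-DOX and KO-CTRL CD4 cells.

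Few of the other differences in 1 lineage were large. In CD8 cells Igflr1, a TNF receptor family member, stood at 28.7 CPM in KO-DOX and 22.05 CPM in KO-CTRL, against 34.4 and 34.7 CPM in KO-DOX and KO-CTRL CD4 cells. Hist1h2ai, a replication-dependent histone gene, stood at 35.2 CPM in KO-DOX and 23.9 CPM in KO-CTRL CD8 cells, and 1 cell held 20.1% of the KO-DOX and another 10.6% of the KO-CTRL UMIs. Among the CD8 subsets its intervals lay apart in dividing cells alone, at 209 CPM in KO-DOX and 148 CPM in KO-CTRL. In memory or activated cells it stood at 2.66 CPM in KO-DOX and 2.91 CPM in KO-CTRL. Nmt2, a protein myristoyltransferase, was lower in CD8 cells only, at 24.1 CPM in KO-DOX and 30.5 CPM in KO-CTRL. Its log2 fold of -0.3254 lay close to the limit of 0.32, and with the subsets weighted to the same proportions it was -0.3195 and not called. In CD4 cells only, Polr3b, a subunit of RNA polymerase III, was lower at 30.9 CPM in KO-DOX and 39.5 CPM in KO-CTRL, as was Nbn, a member of the complex that senses DNA breaks, at 34.4 CPM in KO-DOX and 45.1 CPM in KO-CTRL. Polr3b was not called with the subsets weighted to the same proportions, at a log2 fold of -0.3085. With cells thinned to 1500 UMIs the Nbn log2 fold in CD4 cells was 0.023 and not called, and under the stricter gates it was -0.27 and not called. Nbn was the 1 call among 23 measured DNA repair genes in CD4 cells, where 0.766% of all measured genes were called lower. In CD8 cells 0 of 18 were called.

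For the lists that follow, 1.95% of all measured genes were called higher in CD4 cells and 0.414% in CD8 cells, and 0.983% were called lower in CD8 cells. Of inhibitory receptor genes 1 of 8 measured was called higher in CD8 cells (Tigit) and 4 of 14 in CD4 cells (Tigit, Tox2, Pdcd1 and Ctla4). On the co-stimulation list 0 of 13 were called in CD8 cells and 3 of 19 were higher in CD4 cells (Tnfrsf4, Pdcd1 and Ctla4). Of helper cytokine and lineage genes 0 of 15 were called in CD8 cells and 5 of 19 were higher in CD4 cells (Il10, Il4, Il18r1, Ifng and Il21), and of migration genes 1 of 19 was lower in CD8 cells (Rgs1) and 4 of 22 were higher in CD4 cells (Cxcr5, Ccr8, Cxcr4 and Itgae). Of 23 measured naive and quiescence genes 1 was called higher in CD8 cells, Igfbp4, a growth factor binding protein of naive cells, at 175 CPM in KO-DOX and 136 CPM in KO-CTRL, and 0 were called in CD4 cells. Of 4 measured nuclear-retained RNAs 0 were called in either lineage, with medians of -0.15 in CD8 and -0.07 in CD4 cells.

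Among genes called in 1 lineage and under the floor in the other, Setbp1 had the highest fold in CD8 cells. It encodes a SET-binding nuclear protein and stood at 32.5 CPM (29.9 to 35.2) in KO-DOX and 4.56 CPM (3.67 to 5.59) in KO-CTRL CD8 cells, a log2 fold of 2.59. Its UMIs came from 444 KO-DOX and 81 KO-CTRL CD8 cells, with under 1% in any 1 KO-DOX cell (0.864%). KO-DOX was higher with intervals apart in all 4 CD8 subsets, from dividing cells (10.02 CPM in KO-DOX, 1.34 CPM in KO-CTRL) to remaining cells (43.4 CPM in KO-DOX, 3.92 CPM in KO-CTRL). In CD4 cells it stood at 11.03 CPM in KO-DOX and 5.91 CPM in KO-CTRL, and the WT CD8 cells had 5.90 CPM in WT-DOX and 6.17 CPM in WT-CTRL. Gm2663 was the opposite case, with 0.573 CPM in KO-DOX and 21.1 CPM in KO-CTRL CD4 cells, and the KO-CTRL UMIs came from 11 cells of which 1 gave 39.0%. Auts2 and Tmie were the other 2 higher calls of this kind in CD8 cells. Auts2 had log2 folds of 0.42 in CD8 and 0.69 in CD4 cells, so it was higher in KO-DOX in both and the floor set the lineages apart. Tmie had 0.35 in CD8 and -0.16 in CD4 cells.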

How the data were processed

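The deposited values are counts: per the file headers the authors supplied 1 gene by barcode matrix of whole UMI counts per library, without cell type annotation. The genome build was mm10, per the submitters' processing notes, while the aligner and the cell caller were not given in the sources used here. In all, the 4 libraries held 10372 (KO-DOX), 12959 (KO-CTRL), 12438 (WT-DOX) and 12828 (WT-CTRL) barcodes and 37754389, 47081849, 42987683 and 46300824 UMIs in that order, and median UMIs per barcode lay between 2985 and 3067.

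Barcodes with fewer than 300 genes or over 10% mitochondrial UMIs were dropped, and the rest were gated on Cd8a, Cd8b1, Cd4 and Cd79a, and summed per lineage and library. No doublet caller was run, and the gates remove barcodes with both lineages' transcripts or with Cd79a. Gate genes and receptor gene segments were left out of the 5800 and 6268 genes measured in CD8 and CD4 cells. The fold used a pseudocount of 1 CPM. Exact Poisson and Clopper-Pearson intervals were set at 95%, and the interval of a difference between log2 folds used the counting error of the 4 sums. The procedure was tested on simulated Poisson counts, the same model as the intervals, without clumping of UMIs in single cells. That test therefore does not show how calls hold where few cells carry a gene's UMIs. Cells were not treated as replicates, and whether several mice were pooled in a library is not given.

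Named genes were the 8 in each direction called in both lineages with the largest smaller absolute log2 fold, the 5 in each direction and lineage with the largest difference between lineages, the 4 largest in each direction and lineage with the other lineage under the floor, those with opposite calls, up to 2 called members per list, direction and lineage, and Cd274, Pdcd1, Pdcd1lg2, Ifng, Gzmb, Foxp3, Mki67, Gpx4, Bbc3, Cdkn1a and the gate genes. Other genes named in the text were chosen after their values were seen, to complete a list or class. The members and the 26 gene lists were chosen with earlier results of these data known. The WT pair was computed the same way and is set beside the knockout pair. Gene coordinates are those of GENCODE M21 as paired with the gene identifiers for 32235 of 32285 genes, and promoter windows are those of RefSeq on GRCm38.p6. Alternatives were the filter, gates, scaling (median of ratios), pseudocount, floor, fold limit, thinning to 1500 UMIs, equal weight per cell, equal subset proportions, a cap of 5 UMIs per gene and cell on median-of-ratios scaled sums, and cells left out by depth, Malat1 share, MHC class II UMIs or division. Python 3.11.15, numpy 2.4.6, scipy 1.17.1, pandas 2.3.3 and matplotlib 3.10.9 were used.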

Additional observations from a re-analysis of the deposited data

Results flagged for a closer look

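A group of genes went in opposite directions in the knockout and WT pairs, all in 1 library per group, so these differences were not tested. The value given is the log2 fold of the knockout pair minus that of the WT pair. In CD4 cells S100a4 differed by 1.46, Nkg7 by 1.46, Abcb1a by 1.07, Runx2 by 1.06 and Ifng by 0.96, each higher in KO-DOX than KO-CTRL and lower in WT-DOX than WT-CTRL. In CD8 cells H2-Aa differed by 2.87, Hist1h2ai by 2.23, Hist1h2ak by 1.597 and Cd74 by 1.28 in the same sense. For Hist1h2ai the knockout intervals lay apart in dividing cells alone among the CD8 subsets. The knockout log2 fold of Hist1h2ak was -0.067 without cells with MHC class II UMIs and -0.046 without dividing cells, and H2-Aa, with 64.4% of its KO-DOX CD8 UMIs in 1 cell, was not called without cells with MHC class II UMIs. Zfp36 in CD8 cells differed by -0.70, lower in KO-DOX than KO-CTRL and higher in WT-DOX than WT-CTRL.

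The CD8 and CD4 cells of the knockout pair went in opposite directions for 2 genes, also untested. The CD8 log2 fold minus the CD4 log2 fold was -1.51 for Hist1h3e and -1.46 for Lgals3. Of the KO-CTRL CD8 UMIs of Hist1h3e 18.2% came from 1 cell, and of the KO-DOX CD4 UMIs of Lgals3 16.5%.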

How the results depend on the processing

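No paired analysis was possible because each group has 1 library. Leaving out cells with MHC class II UMIs and leaving out dividing cells were added after seeing the data. The genes and lists whose direction changed and the counts that moved by more than 1.5 times follow, and the cause was not tested. With stricter gates the CD4 share ratio was 0.984, and the CD4 log2 values were -0.0203 for the inhibitory list median and -1.69 for Ccl5. Under these gates 10 of the 18 shared decreases were still called in both lineages and 18 kept their direction. Thinned to 1500 UMIs, 44 genes were higher in CD8 cells, 52 in CD4 cells and 5 in both, and the CD4 values were 0.0334 for the S phase median, -0.0157 for the G2 and M phase median, 0.11 for 1110038B12Rik, -0.25 for Ccnb1, -0.013 for Cd83, -0.16 for H2-Aa, -0.38 for H2-Eb1 and 0.023 for Nbn. With equal weight per cell, 39 genes were higher in CD8 cells, 187 in CD4 cells and 86 differed in CD4 cells only, the CD4 S phase median was 0.0448 and Mt1 in CD8 cells 0.22. Without cells over 3 times the median depth the CD4 S phase median was 0.15, and the CD8 values were 0.23 for Hist1h3e, 0.23 for Lgals3 and 0.51 for Mt1. With UMIs capped at 5 they were 0.071, 0.017 and 0.12 for these 3 genes in that order, 81 genes were higher in CD4 cells, 8 differed in CD8 cells only and 31 in CD4 cells only. A floor of 5 CPM gave 54 higher and 104 lower in CD8 cells, 184 higher in CD4 cells, 18 higher in both, 41 in CD8 cells only and 101 in CD4 cells only. A floor of 50 CPM gave 9 higher and 25 lower in CD8 cells, 52 higher and 15 lower in CD4 cells, 5 higher and 7 lower in both, 8 in CD8 cells only and 15 in CD4 cells only. A fold limit of 0.58 gave 4 higher and 22 lower in CD8 cells, 30 higher and 5 lower in CD4 cells, 3 higher and 3 lower in both, 1 in CD8 cells only and 5 in CD4 cells only. Without MHC class II cells Hist1h2ak in CD8 cells was -0.067. Without dividing cells the values were -0.46 for Ccnb1, -0.23 for Hist1h3e and -0.23 for Hist1h3f in CD4 cells, and -0.046 for Hist1h2ak, 0.19 for Hist1h3e and 0.19 for Lgals3 in CD8 cells. With subsets at equal proportions 90 of the 122 genes higher in CD4 cells were still called, and after thinning 20 were, 107 with the same sign. The interferon list median lay between -0.29 and -0.23 in CD8 and between -0.22 and -0.13 in CD4 cells over the alternatives, and the mitochondrial median between -0.78 and -0.62 and between -0.55 and -0.31. With 1 library per group, treatment cannot be told apart from library, mouse or handling.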

Other observations

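Further genes were called in CD4 cells only. Il18r1, a receptor chain for interleukin 18 and a member of the helper list, stood at 41.8 CPM in KO-DOX and 28.9 CPM in KO-CTRL CD4 cells. Wdr89, a repeat protein gene, stood at 15.8 CPM in KO-DOX and 25.3 CPM in KO-CTRL CD4 cells. Recql, a DNA helicase, stood at 29.2 CPM in KO-DOX and 22.01 CPM in KO-CTRL CD4 cells.

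Further genes called lower in both lineages were Tmem56, Il31ra and D130009I18Rik. Tmem56 stood at 49.0 CPM in KO-DOX and 66.9 CPM in KO-CTRL CD8 cells, and at 38.7 CPM in KO-DOX and 57.1 CPM in KO-CTRL CD4 cells. Il31ra, a cytokine receptor chain, stood at 117 CPM in KO-DOX and 175 CPM in KO-CTRL CD8 cells, and at 99.1 CPM in KO-DOX and 127 CPM in KO-CTRL CD4 cells.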
